A study of Homo sapiens with 8 samples.

Results

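The wild-type (WT) H3K27ac landscape of HCECs was taken from the peak lists of 3 ChIP-seq libraries (WT 1, WT 2 and WT 3). Joining all peaks that shared or adjoined bases gave 111645 intervals, and an interval was retained where each of the 3 lists held a peak with a fold of at least 5 over the local background. This selected 30814 intervals, 27.6% of the WT total, which are called members here. Merging the lists of the whole series, knockout libraries included, gave 143733 intervals, and the knockout lists were used for nothing else. The members were chosen on the height of their own peaks, so their heights, widths and positions are a description without a test. The 100 members just inside the rule had a lowest fold of 5.00 to 5.02 in their weakest library, and the 100 intervals just outside it, with a peak in all 3 lists, had 4.98 to 5.00.

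The cells are HCEC-1CT, a line of human colonic epithelial cells kept from senescence by exogenous CDK4 and telomerase, grown in normoxia with calf serum, EGF, insulin, transferrin, selenite and hydrocortisone. The WT group is the parental line without a targeted gene, and the series' design gives 3 independent populations, so the spread over libraries is that between cultures of the same line. The methods describe a line with inducible Cas9 and a pool of parental subclones as the control for edited clones, and call the cells used for ChIP-seq parental. No drug or other treatment is given for these libraries. Each list was called on its own library, and no read counts come with it. The methods state a mean sequencing depth and a cap on reads for the libraries as a whole, and the depth behind each list is not given in the files.

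H3K27ac, acetylation of lysine on the tail of histone H3, is deposited mainly by the acetyltransferases CREBBP and EP300. It marks nucleosomes beside active promoters and active enhancers, and is low or absent at silent ones. Enhancers with this mark differ far more between cell types than promoters do, which is why the mark is often used to describe cell identity. In the intestinal epithelium, enhancers are known to be bound by factors such as CDX2, HNF4A and GATA6, whereas AP-1, TEAD and RUNX factors are common at the enhancers of adherent cells grown in culture.

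The highest promoters are shown first, since their sequence differs from that of the highest enhancer-like intervals. The letters are the bases just upstream of the RefSeq start (GRCh38, 5′ to 3′ on the strand of the gene) of the first 4 genes, going down the order of promoter height, whose start lay in the interval and whose upstream bases were free of annotated UTRs. These were EIF3B at chr7:2354577-2354826 (plus strand), SRSF6 at chr20:43457646-43457892 (plus strand), HTR1B at chr6:77463492-77463741 (minus strand) and SMC5 at chr9:70258728-70258977 (plus strand). Capitals mark matches to the SP and KLF (GGGCGGG), NFY (CCAAT), ETS (CCGGAAG) or CRE (TGACGTCA) motifs on either strand.
EIF3B: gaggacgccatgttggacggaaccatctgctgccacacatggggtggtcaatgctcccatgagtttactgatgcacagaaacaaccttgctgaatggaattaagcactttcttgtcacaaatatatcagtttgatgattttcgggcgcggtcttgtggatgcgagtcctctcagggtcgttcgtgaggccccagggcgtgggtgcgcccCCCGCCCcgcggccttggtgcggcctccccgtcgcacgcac
SRSF6: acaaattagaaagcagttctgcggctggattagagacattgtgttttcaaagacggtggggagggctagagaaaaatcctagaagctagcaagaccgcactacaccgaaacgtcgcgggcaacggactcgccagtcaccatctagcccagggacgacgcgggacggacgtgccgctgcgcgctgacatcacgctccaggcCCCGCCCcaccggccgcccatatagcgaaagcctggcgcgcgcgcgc
HTR1B: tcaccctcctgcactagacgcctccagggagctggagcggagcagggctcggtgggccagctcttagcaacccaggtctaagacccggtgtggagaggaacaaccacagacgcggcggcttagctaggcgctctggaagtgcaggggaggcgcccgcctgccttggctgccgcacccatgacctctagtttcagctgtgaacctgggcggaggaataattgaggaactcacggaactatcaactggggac
SMC5: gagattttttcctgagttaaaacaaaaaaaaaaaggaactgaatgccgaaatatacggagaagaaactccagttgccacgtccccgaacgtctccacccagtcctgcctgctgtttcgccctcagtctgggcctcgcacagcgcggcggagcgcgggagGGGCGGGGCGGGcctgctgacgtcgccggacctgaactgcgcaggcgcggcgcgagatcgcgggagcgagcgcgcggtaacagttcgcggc

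The EIF3B and SRSF6 sequences each held 1 SP and KLF match, that of SMC5 held 2 matches that overlap by their ends, and that of HTR1B held none of the 4 motifs. Their GC content was 58.0% for EIF3B, 61.1% for SRSF6, 62.0% for HTR1B and 62.0% for SMC5. The summit of the HTR1B interval lay 6.35 kb from the start, so its height is not that of the printed bases.

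The 300 bases around the summit, the highest point of the peak, are shown for the 4 highest distal members, those over 1 kb from every annotated start, and for the highest one with an AP-1 match in that window. They lie in hg38 (plus strand) near YAP1, PTPRQ, ARHGAP42, VGLL3 and CCN6: YAP1 at chr11:102171490-102171789, PTPRQ at chr12:80579898-80580197, ARHGAP42 at chr11:100877428-100877727, VGLL3 at chr3:86794362-86794661 and CCN6 at chr6:111973281-111973580. Capitals mark AP-1 (TGANTCA) or TEAD (GGAATG) matches on either strand.
YAP1: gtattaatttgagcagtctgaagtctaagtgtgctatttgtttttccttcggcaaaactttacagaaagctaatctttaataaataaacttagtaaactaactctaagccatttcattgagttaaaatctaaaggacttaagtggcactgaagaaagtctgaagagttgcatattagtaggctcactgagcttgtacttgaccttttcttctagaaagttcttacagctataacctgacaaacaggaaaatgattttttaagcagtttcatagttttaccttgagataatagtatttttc
PTPRQ: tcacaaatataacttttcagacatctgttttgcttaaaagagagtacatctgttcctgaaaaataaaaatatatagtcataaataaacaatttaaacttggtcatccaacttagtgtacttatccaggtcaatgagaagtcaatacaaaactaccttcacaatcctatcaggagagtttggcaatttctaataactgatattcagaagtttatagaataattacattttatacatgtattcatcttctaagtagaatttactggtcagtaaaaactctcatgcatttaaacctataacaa
ARHGAP42: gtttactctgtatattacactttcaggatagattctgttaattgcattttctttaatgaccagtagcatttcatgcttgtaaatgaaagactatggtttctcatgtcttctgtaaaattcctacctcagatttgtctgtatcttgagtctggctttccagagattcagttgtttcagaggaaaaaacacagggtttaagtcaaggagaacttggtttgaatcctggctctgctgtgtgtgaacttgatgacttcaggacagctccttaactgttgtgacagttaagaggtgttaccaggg
VGLL3: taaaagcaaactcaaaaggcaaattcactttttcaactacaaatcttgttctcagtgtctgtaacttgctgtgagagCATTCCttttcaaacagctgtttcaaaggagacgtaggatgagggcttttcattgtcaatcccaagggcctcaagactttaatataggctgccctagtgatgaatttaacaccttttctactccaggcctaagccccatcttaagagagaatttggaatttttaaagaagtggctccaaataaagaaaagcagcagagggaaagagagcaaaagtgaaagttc
CCN6: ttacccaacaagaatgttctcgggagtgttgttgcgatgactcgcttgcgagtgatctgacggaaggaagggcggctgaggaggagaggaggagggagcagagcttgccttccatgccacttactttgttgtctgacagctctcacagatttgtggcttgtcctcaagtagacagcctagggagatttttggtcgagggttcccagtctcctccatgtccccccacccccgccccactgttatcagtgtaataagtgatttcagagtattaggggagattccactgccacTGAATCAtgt

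The windows near YAP1, PTPRQ and ARHGAP42 held neither motif, and the VGLL3 window held 1 TEAD match, which made it also the highest distal member with that motif. The CCN6 window held 1 AP-1 match near its edge. GC content was 32.0% near YAP1, 28.3% near PTPRQ, 38.7% near ARHGAP42, 39.3% near VGLL3 and 52.0% near CCN6.

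Members split between promoters and distal elements, and their height ordered the split. Of the 30767 members on chromosomes 1 to 22 and X, 10707 (34.8%) came within 1 kb of the start of a protein-coding transcript, 3715 (12.1%) reached another annotated transcript start only, and 16345 (53.1%) were distal. The median of the mean fold was 11.6 at protein-coding starts, 9.75 at other starts and 8.54 in distal members. Among intervals with a peak in all 3 lists that the rule left out, 81.5% were distal and 7.61% reached a protein-coding start. The rule therefore kept promoters in a larger share than distal intervals.

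**Figure D1:**
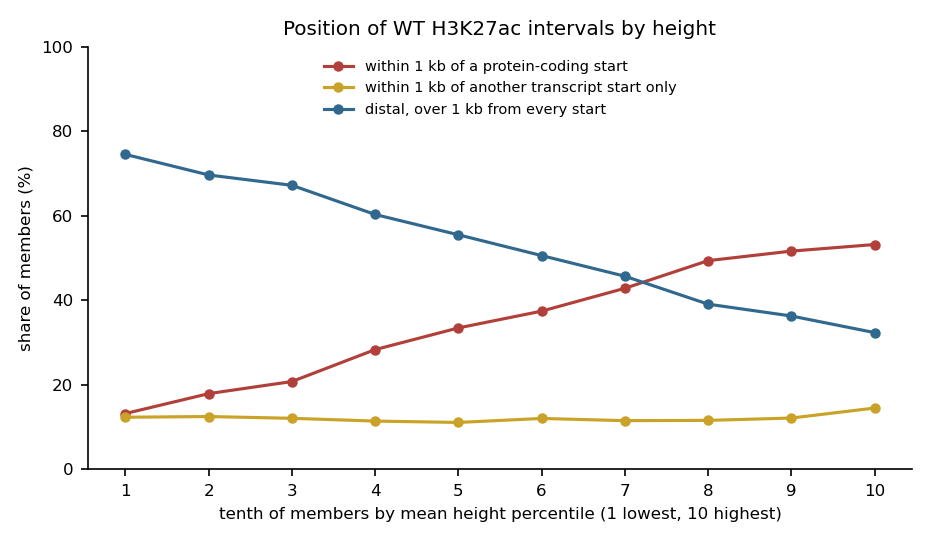
Share of members (%) in each class of position, against the tenth of members by mean height percentile over the 3 WT libraries. The share at a protein-coding start rises from 13.2% in the lowest group to 53.2% in the highest, and the distal share falls from 74.6% to 32.3%.

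In the plot of position by height, members were sorted by the mean over libraries of the percentile of their highest peak within its list. The share at other transcript starts stayed between 11% and 14.5% over the 10 groups. Width moved with height as well, from a median of 2027 bases in the lowest group to 5244 bases in the highest. These groups and all rankings leave out the 47 members on other sequences of the assembly, which hold the highest fold of each library (67, 57.7 and 63.3). Of the 100 highest members on chromosomes 1 to 22 and X, 41 reached a protein-coding start, 29 another start and 30 were distal, so the top of the order was not made of promoters alone.

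The 3 libraries were close in their peaks with a fold of at least 5, whereas many intervals of the whole lists came from 1 library. Of the 111645 merged WT intervals, 61452 had a peak in all 3 lists, 15388 in 2 lists and 34805 in 1 list. WT 1 held 93567 peaks, WT 2 held 92891 and WT 3 held 86163, of which 41.6%, 42.0% and 43.0% had a fold of at least 5. Bases covered by such peaks overlapped with a Jaccard index of 0.739 to 0.750 between pairs of libraries. Across the 30814 members, the fold had a Spearman correlation of 0.871 to 0.885 between libraries, a description over intervals that are not independent. The SD of a member's percentile over the 3 libraries had a median of 2.98 percentile points and reached 17.1. The spread was largest for a distal interval in an intron of SNRK, a kinase gene, with folds of 7.18, 14.4 and 5.32. Next came the start of TTLL12, with folds of 9.75, 5.06 and 13.8. Heights of these intervals are thus poorly fixed by 3 libraries, whereas in the highest group the median SD was 0.651 points.

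Intervals were ordered by the mean over libraries of their percentile, not by the mean fold. The highest member at a protein-coding start, chr7:2353466-2357029, covered the start of EIF3B, a subunit of translation initiation factor eIF3, and an upstream start of SNX8, a sorting nexin of endosomes. Its fold was 47.6, 40.0 and 46.9 in the 3 libraries, 44.8 ± 4.21 (SD, n = 3). HSPA8, the constitutive cytosolic Hsp70 chaperone, followed at chr11:123055943-123069116 with 44.2, 38.8 and 40.3. The third interval, chr20:43456696-43459964, held the start of SRSF6, an SR protein of splicing, and reached 36.1, 36.1 and 46.9. The ranges of these 3 intervals overlapped, so their order is not fixed by the libraries.

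Among the 15 highest promoters were pairs of genes that start in the same interval, which the lists cannot separate. CDC45, part of the replicative helicase, shared its interval with UFD1, a factor of ubiquitin-dependent degradation, at 41.7, 32.7 and 35.6. TRAPPC3, of the vesicle-tethering TRAPP complex, shared with MAP7D1, a microtubule-associated protein, at 40.1, 33.6 and 37.5. PREPL and CAMKMT, a peptidase-like protein and the calmodulin-lysine methyltransferase, shared with 39.0, 31.1 and 32.1. FNBP4, BICRAL and SMC5, of which BICRAL belongs to a SWI/SNF complex and SMC5 to the SMC5/6 complex of DNA repair, had mean folds of 35.4, 34.3 and 33.4.

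Receptor and signalling genes stood in the same order. HMGA2, an architectural chromatin protein of embryonic and mesenchymal cells, had an interval of 40233 bases with folds of 34.9, 33.2 and 32.3. RXFP1, a relaxin receptor, had 46.1, 41.3 and 28.9, with the largest SD of the 15 (8.89), at a start that is 207 kb from the canonical one. The intervals listed under HTR1B, a serotonin receptor, and PRKD1, protein kinase D1, reached those starts by their width, since their summits lay 6.35 and 3.43 kb away. ZNF219, a zinc finger protein, had 33.4 ± 3.5 (SD, n = 3). GTF2IRD2B has a near-identical copy in the genome, so its fold of 33.0 ± 2.28 (SD, n = 3) is uncertain, as reads from the copy could not be told apart.

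The plot of the highest intervals shows distal members in the same range of fold as the highest promoters. The first lay in an intron of YAP1, the transcriptional coactivator of the Hippo pathway that works through TEAD factors, at chr11:102167068-102180290 and 61.2 kb from the canonical start. Its fold was 49.6, 42.3 and 38.5, 43.4 ± 5.64 (SD, n = 3). The fourth, between genes at chr3:86791038-86796253, was nearest to VGLL3, a TEAD cofactor, 196 kb from its start, and had 43.4, 35.0 and 37.1. Distance alone does not tell which gene an interval acts on.

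Introns held 6 of these 15 distal members. Those in ARHGAP42, a GTPase-activating protein (39.7, 38.7 and 36.7), in PTPRQ, a receptor phosphatase (46.2, 38.8 and 35.1), and in OSBPL3, an oxysterol-binding protein (40.4, 33.0 and 39.5), were 3 of them. SLC9A9, an endosomal sodium/proton exchanger, and TENM2, a teneurin adhesion protein, had mean folds of 37.4 and 34.7. Outside genes, the interval 279 kb from TCF21, a transcription factor of mesenchymal lineages, had 37.1, 33.7 and 33.9. The interval nearest to CCN6, 80.6 kb away, was the most even of the 15 at 34.9, 35.5 and 34.7.

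The other intervals between genes were nearest to genes that include SNX18, MAP2K6, METTL15, KPNA3 and C8orf34. The mean folds of these 5 ran from 33.7 near KPNA3 to 37.4 near SNX18, over distances of 65.4 kb (KPNA3) to 723 kb (METTL15). Among members at other transcript starts only, the 5 highest lay near AKR1E2 (43.2), BCAS1 (43.3), CDC42EP3 (40.7), ADAMTS6 (38.0) and CROCC (39.9), each value the mean fold of 3 libraries. The CROCC interval lies in a region with near-identical copies and is uncertain.

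Members were usually compact, with a few that spanned a whole locus. The median width was 2973 bases, with a lower quartile of 2112 and an upper quartile of 4476. There were 184 members of at least 20000 bases and 20 of at least 40000. The widest spanned 79205 bases at TRIO, a guanine nucleotide exchange factor, at chr5:14163449-14242653, with folds of 19.4, 20.0 and 17.9.

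Of the 10 widest, 3 reached no protein-coding start. TRAM2, of the endoplasmic reticulum translocon, had 71127 bases. HIF1A, the oxygen-regulated transcription factor, had 63691 bases with folds of 20.6, 14.1 and 17.7, in cells grown in normoxia. HIPK2, a nuclear kinase, had 62864, ANKRD28, a phosphatase subunit, had 61247, and FN1, fibronectin, had 54828. An interval of 70046 bases listed under BLID held starts of MIR100HG, the host of MIR100 and MIRLET7A2, with its summit 63.9 kb from the BLID start. Another of 60551 bases, nearest to KLF14, held starts of LINC-PINT, MIR29A and MIR29B1. The remaining intervals of the 10 had their summits in introns. That of 59057 bases lay in an unnamed gene, with SLC7A14 the nearest start at 141 kb. That of 57714 bases lay in ZBTB16, with NNMT the nearest start at 94.1 kb.

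Distal members lay far from promoters and were unevenly spread. Their median distance to the nearest protein-coding start was 40.6 kb, and 58.6% lay between 10 and 100 kb away, while 4.60% were over 500 kb away. Summits fell in introns for 53.1%, between genes for 44.4% and in exons for 2.59%. Height hardly moved with distance, with a median of the mean fold of 8.10 within 10 kb and 8.28 over 500 kb. In fixed windows of 200 kb the mean was 1.08 distal members, 54.3% of windows held none, and 21 of 15166 windows held 10 or more.

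The densest locus overlapped COL5A2, the alpha-2 chain of type V collagen. Its 200 kb window, chr2:189210954-189410953, held 17 distal members that covered 41.0% of the bases, with mean folds from 6.67 to 30.4. COL5A2 was the nearest gene for 10 of the 17. Other loci among the 12 densest overlapped RUNX2, the transcription factor of osteoblasts, with 12 members, all in introns, and COL6A3, a chain of type VI collagen. The COL6A3 window held 12 members, all between genes, with COL6A3 the nearest gene for 7.

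A window at chr18:73486319-73686318 with no protein-coding gene held 15 members that covered 51.4% of it, a median of 547 kb from the nearest start, mostly FBXO15. The window of CCN1, a matricellular protein and YAP target, and DDAH1 held 13, of which 9 were nearest to DDAH1. Windows mostly nearest to ERRFI1, a feedback inhibitor of the EGF receptor, and to SLC44A3 also held 13 each. The windows of CUBN, SEMA3A, BNC2, CBLB and BCAS1 held 12 each. BNC2 is a zinc finger protein of fibroblasts, SEMA3A a secreted guidance cue and CBLB a ubiquitin ligase.

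Counting by gene instead of window, 6146 protein-coding genes were nearest to at least 1 distal member, with a median of 2. The 200 genes nearest to 10 or more took 16.1% of all distal members. CITED2, a transcriptional coregulator that binds CREBBP and EP300, was nearest to 35, up to 1249 kb away, and its own start had a mean fold of 19.5. PCDH9 followed with 26 and NRG1, an ERBB ligand, and CDH9 with 25 each. LPP, a focal adhesion protein, ALCAM and BNC2 had 23 each, and SORCS1, RAD51B and NR2F1 had 21 each. CDH9 had a peak but no member at its own start, and SORCS1 had no peak there, so a run of distal members did not always go with an acetylated promoter of the nearest gene.

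Members were counted by chromosome beside gene density. Chromosome 19 had the most members per Mb (17.3) and the lowest distal share (22.8%), and also the most protein-coding genes per Mb (25.2). Chromosome 13 had the highest distal share (65.5%) and the fewest genes per Mb (2.82). Chromosome X had 5.31 members per Mb, the lowest, and 2.65 distal members per Mb, against 10.6 and 6.15 on chromosome 3, which has a like gene density (5.45 per Mb against 5.50 on X). Copy number was not measured here, and the paper describes HCECs as karyotypically normal from low-pass genome sequencing.

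At promoters, summits sat on the gene side of the start. Of 10212 summits within 2 kb of a canonical protein-coding start, 67.8% were downstream. The stretch from 100 to 600 bases downstream held 59.9%, the same stretch upstream 24.0%, and only 3.6% lay within 100 bases of the start itself.

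**Figure D2:**
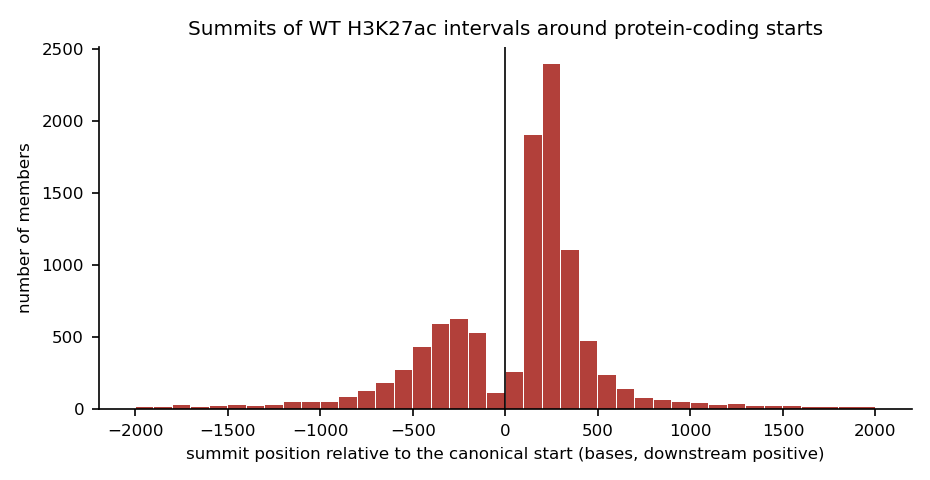
Number of members by the position of their summit relative to the nearest canonical protein-coding start (bases, downstream positive, bins of 100 bases). The highest bin, 200 to 300 bases downstream, holds 2395 summits, against 627 in the highest upstream bin and 115 in the last bin before the start.

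The plot of summits around starts thus has a tall peak downstream, a lower one upstream and a trough at the start. A nucleosome-free start between acetylated nucleosomes is the textbook arrangement of an active promoter, and nucleosome positions were not measured here.

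At distal members, motif matches were also fewer at the summit than beside it. In 100-base bins, an AP-1 match was found in 3.6% of distal members within 100 bases of the summit, in 11.5% at 200 to 400 bases on either side, and in 3.25% at 1500 to 2000 bases. With each library's own summits the values were 3.71% ± 0.119, 11% ± 0.187 and 3.25% ± 0.0120 (SD, n = 3). The intervals and the reference sequence are the same in each case, so this spread measures only the shift of summits between libraries. TEAD matches were also most frequent at 200 to 400 bases, with 5.84%, 8.33% and 5.58% in the same order. CDX matches (TTTATTG), the motif of the intestinal CDX factors, were not, at 2.25%, 3.14% and 3.23%. The rise beside the summit was not particular to members. Distal intervals in all 3 lists outside the rule had 4.87%, 8.35% and 3.1% for AP-1, and 6.18%, 6.95% and 5.36% for TEAD.

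**Figure D3:**
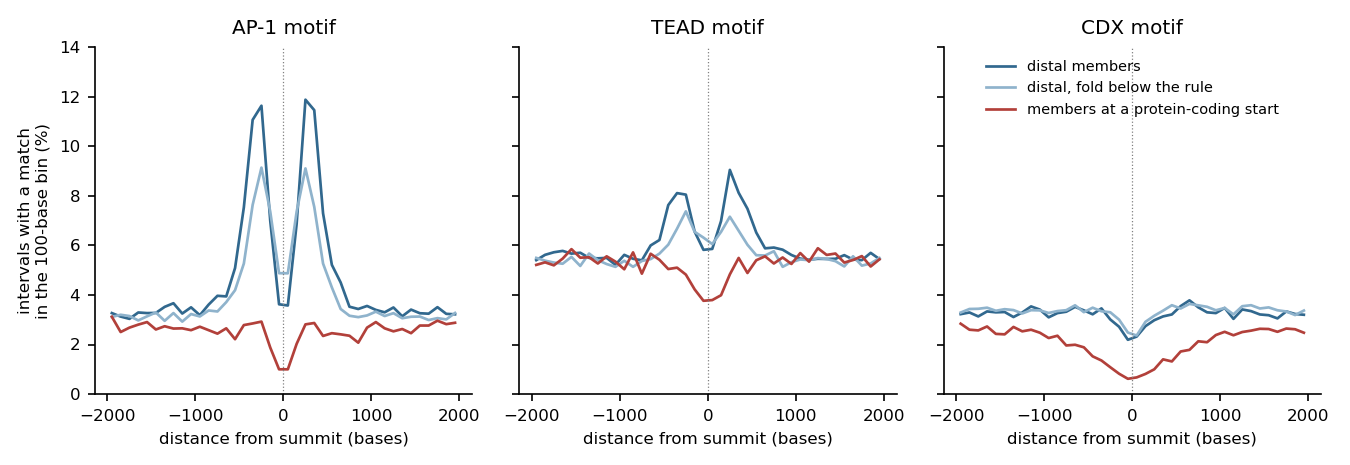
Share of intervals (%) with a match to the AP-1, TEAD or CDX motif in each 100-base bin, by distance from the summit, for distal members, distal intervals in all 3 lists with a fold below the rule, and members at a protein-coding start. The AP-1 curve of distal members has a peak on each side of the summit, the highest bin reaching 11.9% at 200 to 300 bases, where the CDX curve has none.

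For some of the highest distal members an AP-1 match lay at this distance, outside the window printed above. Over all distal members, 11.5% had a match per 100-base bin at 200 to 400 bases, and 11.7% had one in the 300-base window. Their share over the whole of the 200 to 400 bases was not computed, so the next count describes these intervals only. Of the 15 highest, 5 had a match 200 to 400 bases from the summit, against 1 within the window of 300 bases, a shorter stretch. The first 3 of them are shown with 30 bases on each side of the match, which is in capitals, in hg38 (plus strand): YAP1 at chr11:102171254-102171320, TCF21 at chr6:133610663-133610729 and TENM2 at chr5:167699478-167699544. They were picked after the distance had been seen.
YAP1: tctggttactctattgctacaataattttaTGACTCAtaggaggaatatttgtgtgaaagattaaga
TCF21: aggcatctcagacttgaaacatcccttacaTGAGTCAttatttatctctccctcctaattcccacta
TENM2: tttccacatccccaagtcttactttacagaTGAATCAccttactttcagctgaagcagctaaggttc

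The match near YAP1 lay 353 bases from the summit, that near TCF21 233 and that in TENM2 216. A match is a run of letters and says nothing by itself about binding.

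Distal members held AP-1 more often than tiles of the genome in each window tried, while the order against distal intervals outside the rule turned with the width. In 300 bases around the summit 11.7% of distal members held a match, against 9.15% of all 300-base tiles of the chromosomes and 15.2% of distal intervals in all 3 lists outside the rule. In 1000 bases, a window chosen after seeing the data, 60.3% held one, against 27.3% of tiles and 52.5% of those outside intervals. TEAD in 1000 bases stood at 52.6%, 43.2% and 48.4% in the same order, and FOX (TGTTTAC) at 19.2%, 14.7% and 19.2%. RUNX (TGTGGT) at 53.7% against 51.5% of tiles, HNF4 (CAAAGTCCA) at 1.43% against 1.29% and CDX at 24.9% against 29.2% were close to or under the tiles. The motif of the GATA factors, which reads AGATAA, stood at 50.6% against 52.8%.

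Across 4 height groups of distal members, from lowest to highest, the AP-1 share in 1000 bases was 59.2%, 59.7%, 62.0% and 60.3%. In 300 bases it was 13.6%, 11.7%, 11.7% and 9.91%. Base composition differs between the sets, with a median GC content in 300 bases of 43.3% in distal members, 40.0% in tiles and 66.3% in members at protein-coding starts, and its part in the motif shares was not tested.

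Members at protein-coding starts carried other letters. In 300 bases around their summits 33.3% held the SP and KLF motif, against 2.51% of distal members and 1.5% of tiles. ETS matches were in 8.93% against 1.14% of distal members, and CRE matches, the motif of CREB and ATF factors, in 0.616% against 0.110%. AP-1 was in 3.26%, under the tiles. The median number of CpG was 24 at these summits and 2 at distal ones.

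The remaining motifs at distal summits were read in both windows. In the 300-base window NFY was in 32.9% of distal members against 37.8% of tiles, the E-box (CACGTG) in 3.12% against 2.76%, and NRF1 (GCGCATGC) in 0.496% against 0.452%. The C/EBP palindrome TTGCGCAA was in 7 of 16345 distal members.

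Across the genome, 11044 of 19970 protein-coding genes (55.3%) had a member within 1 kb of a start, 1745 had only a peak outside the rule, and 7181 had no peak. Over the genes with a member, the median of the mean fold was 12.2 and that of the percentile 89.0. As a check at the extremes, 82 of 84 ribosomal protein genes had a member, and 6 of 416 olfactory receptor genes did. Of the 15315 genes matched by symbol in the RefSeq promoter table (GRCh38, from 250 bases before to 50 after the start), promoters of genes with a member had a median GC content of 65.0%, and those without a peak 56.7%. The share with the ETS motif was 21.3% against 3.79%, and with the SP and KLF motif 53.7% against 28.1%, beside 14.4% and 45.0% over all 15315. NFY was in 37.5% and 35.4%. Once a promoter had a member, its height did not follow GC content, since the median of the mean fold lay between 12 and 12.6 in all 4 groups by GC.

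At their starts, few genes of the intestinal and epithelial lists had a member, while most mesenchymal genes did. Of 20 genes for intestinal transcription factors, 7 (35.0%) had a member, of 23 general epithelial genes 7 (30.4%), of 20 colonocyte genes 1 and of 11 goblet cell genes 0. Of 25 mesenchymal and fibroblast genes 22 (88.0%) had one, with a median fold of 16.3. These counts are read beside the 55.3% of all protein-coding genes. A further 6 general epithelial genes had only a peak outside the rule, as had 2 mesenchymal genes. Citing earlier work, the paper describes HCECs as still expressing markers of the intestine and able to form organoids of normal morphology. The landscape is therefore named here by its cells of origin and its rule, and by no cell type. H3K27ac at a start is not expression, which was not analysed here, and in a population of cells a weak mark in all cells and a strong mark in few cannot be told apart.

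**Figure D4:**
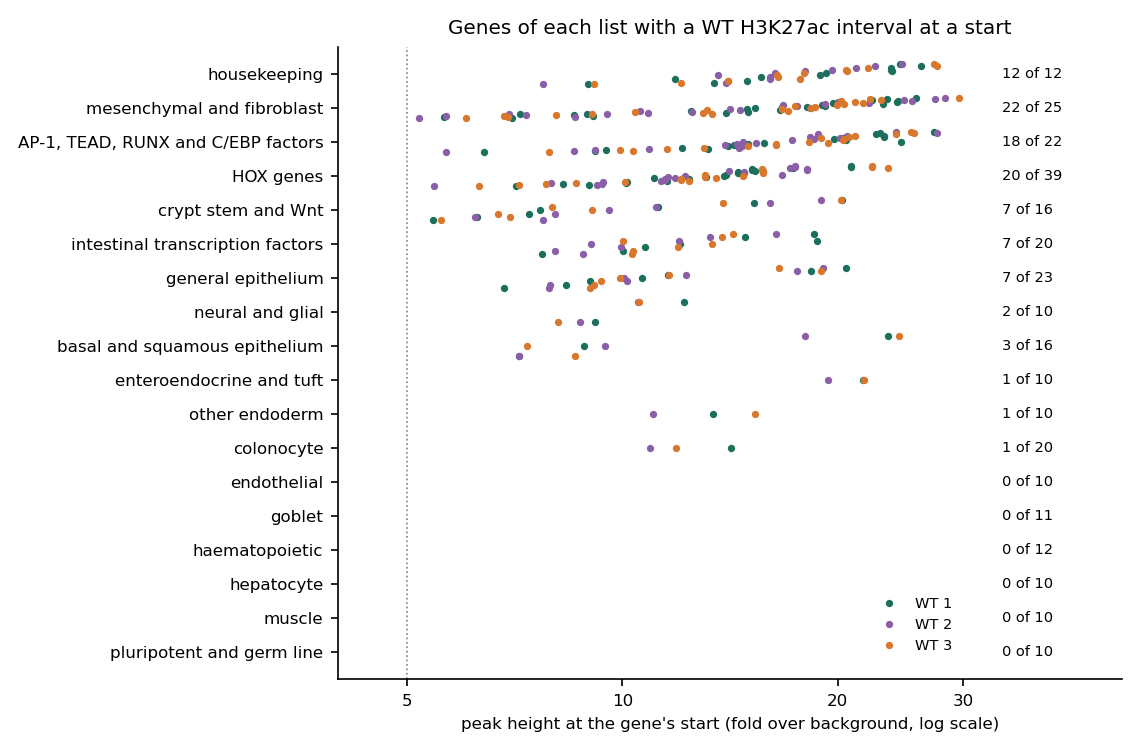
Peak height (fold over background, log scale) in WT 1, WT 2 and WT 3 for each gene with a member at a start, by gene list, with the number of such genes out of the genes in the list at the right. Points of the mesenchymal list reach 29.6, and its highest mean fold is 27.9. The highest mean fold is 25.6 in the AP-1, TEAD, RUNX and C/EBP list and 25.5 in the housekeeping list. The goblet, endothelial, haematopoietic, muscle, hepatocyte and pluripotent lists have no gene with a member.

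Among intestinal transcription factors, 12 had no peak. CDX1, CDX2, HNF4A, GATA4, GATA6, ISX, SOX9, ELF3, GRHL2 and FOXA2 were among these, with none in any of the 3 lists within 1 kb of a start, and FOXA1 had a peak of at most 7.48 outside the rule. The nearest member was 169 kb from CDX2 and 218 kb from SOX9, but 6.40 kb from CDX1. In the whole list, 11 of 20 genes had a distal member within 100 kb, 1.25 on average. This is near the 58.7% and 1.36 of all protein-coding genes. TCF7L2, the Wnt effector, was the highest of the list with a member, at 18.5, 16.4 and 14.3.

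KLF5, a factor of crypt cells, had 18.7, 12 and 10.0, and KLF4 had 10.0, 8.05 and 10.3. VDR, the vitamin D receptor, was lowest of the list with a mean of 8.95 ± 1.3 (SD, n = 3). HNF4G (14 ± 0.810), EHF (11.5 ± 2.21) and VDR reached a member only at a start other than the canonical one, so 4 of 20 remained with canonical starts alone.

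Among general epithelial genes, tight junction genes OCLN, at a start other than the canonical, and TJP1 had mean folds of 18.7 and 18.3, and TJP1 had 11 distal members within 100 kb. KRT7 (10.2), CLDN7 (9.50), LAMB3 (8.46), ESRP2 (11.8) and, at a start other than the canonical, ITGB4 (7.91) also had members. E-cadherin (CDH1), CDH3, ESRP1, KRT19, CLDN3, CLDN4, DSP, RAB25, ST14 and SPINT1 had no peak at a start. EPCAM, the usual surface marker of epithelium, had peaks of at most 2.72, and KRT8 and KRT18, keratins of simple epithelium, shared a highest fold of 4.97, just under the rule.

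Marker genes of differentiated colonic cells were nearly without members at starts. SLC26A2, a sulphate transporter also used by cartilage, was the only colonocyte gene with a member, at 14.2, 10.9 and 11.9. Neither KRT20, VIL1, CDH17, CA1, CA2 nor SLC26A3 had a peak. MUC2, the goblet cell mucin, had a peak of at most 4.76, and ATOH1, SPDEF and TFF3 had none. In the enteroendocrine and tuft list SH2D6 was the only one of 10, and it shared its interval with CAPG.

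Crypt and Wnt genes had a member in 7 of 16 (43.8%), under the 55.3% of all protein-coding genes, and TCF7 reached it only at a start other than the canonical one. AXIN2, a direct Wnt target, had 20.3, 18.9 and 20.2, and CD44 had 15.3, 16.1 and 13.8. EPHB2 was the lowest at 5.43, 7.74 and 5.58. LGR5, ASCL2, OLFM4, SMOC2 and RNF43, which mark or restrain intestinal stem cells, had no peak at a start, and LEF1 had peaks of at most 7.29 outside the rule.

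Mesenchymal genes were marked in nearly the whole list. FAP, the fibroblast activation protein, was the highest at 25.7, 28.3 and 29.6. SPARC, a matricellular protein, had 23.4, 27.3 and 22.2, COL3A1 24.3, 25.4 and 20.2, and COL1A1 19.7, 22.1 and 21.7. Among housekeeping genes ACTB had 24.5, 24.6 and 27.3, and EEF1A1 had 23.8, 18.0 and 20.6.

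COL1A1, COL1A2, SPARC, FN1 and ZEB2 also had wide intervals, from 20890 bases at ZEB2 to 54828 at FN1. Transcription factors of the mesenchymal programme followed, with mean folds of 18.1 for ZEB1, 17.3 for ZEB2, 13.4 for SNAI2, 12.6 for TWIST1 and 12.6 for TWIST2. VIM, vimentin, had 17.8 ± 0.987 (SD, n = 3). ACTA2, smooth muscle actin, had 23.4 ± 1.22 but shared its interval with FAS. PRRX1 was the lowest at 6.08 ± 0.905. CDH2 and SNAI1 had a peak outside the rule, and POSTN had none. Each of the 25 genes had a distal member within 100 kb, 2.92 on average, beside 58.7% and 1.36 for all protein-coding genes. Over all genes with a member at a start, as 22 of these 25 were, the values were 70.5% and 1.76. Distal members were not particular to this list. The mean was 2.09 for general epithelial genes (17 of 23 with a distal member) and 2.1 for endothelial genes (7 of 10). It was 1.05 for colonocyte genes (11 of 20).

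Of the other lineages, endothelial (10 genes), haematopoietic (12), muscle (10), hepatocyte (10) and pluripotent and germ line (10) lists had no gene with a member. VWF, CDH5, PTPRC, MYOD1, ALB and NANOG had no peak at a start. The basal and squamous list had 3 of 16, S100A2 (22), PERP (7.64) and, at a start other than the canonical, KRT15 (8.55), with no peak at KRT5 or KRT14 and weak ones at TP63 (at most 3.54). The neural and glial list had SYT1 and, at a start other than the canonical, GFAP, of 10, and the list of other endoderm had PAX8 (13.3 ± 2.15, at a start other than the canonical), of 10.

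In the list of AP-1, TEAD, RUNX and C/EBP genes 18 of 22 (81.8%) had a member, with a median fold of 18.0, beside 55.3% of all protein-coding genes and a median of 12.2 over those with a member. TEAD3 was the highest at 27.3, 24.1 and 25.3, followed by FOSL1, an AP-1 subunit, at 23, 27.6 and 25.6 in an interval shared with CCDC85B and FIBP. JUND (21.7), TEAD1 (21.9), MAFF (20.8), FOSL2 (19.8), CEBPB (19.6), CEBPD (19.4) and RUNX1 (19.2) came next, each a mean of 3 libraries.

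TEAD1 had 9 distal members within 100 kb and RUNX1 had 8. The inducible FOS had 15.8, 15.4 and 19.4, and TEAD2 was the lowest with 6.65 ± 1.14 (SD, n = 3). RUNX3 and BATF, factors of blood cells among others, had no peak at a start, and CEBPA had a peak in 1 library only.

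HOX genes, which record position along the body axis, had a member in 20 of 39 (51.3%), near the 55.3% of all protein-coding genes. HOXA2 to HOXA7 and HOXA9 to HOXA11 each had one, and HOXA13 had none, with its nearest member 15.4 kb away. HOXB2 to HOXB7 had members, HOXB8 and HOXB9 weak peaks outside the rule, and HOXB13 none. HOXD3 and HOXD8 had members, and HOXD9 to HOXD13 had no peak.

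The highest HOX interval, 21746 bases at HOXA9 and HOXA10, had 20.9, 17.4 and 22.4, and cannot be split between these genes. HOXB2 had 17.3, 17.2 and 23.5. HOXB6 was the lowest at 6.28 ± 0.830 (SD, n = 3). HOXC6 and HOXC9 shared an interval at starts other than the canonical ones, the only HOXC genes with a member, and HOXC10 had a peak of at most 3.81. All 12 housekeeping genes had a member, from PGK1 (8.61) to ACTB (25.5).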

How the data were processed

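H3K27ac ChIP-seq peak lists of 3 WT libraries of HCEC-1CT cells were used. Per the labels and the methods, the authors made them with the nf-core ChIP-seq pipeline (BWA is named in the submitters' notes) on hg38, calling narrow peaks with MACS2 in each library. The deposited fold is a linear ratio over local background, and the deposited p-values and q-values are given as −log10. The input used as control, and whether lists precede the stated downsampling, are not given in the sources used here. The depth of each library is not in the files, so no counting interval was computed.

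Lists were merged in Python 3.11.15 (numpy 2.4.6, pandas 2.3.3), checked against bedtools 2.31.1 and on simulated data. The height of an interval in a library was its highest fold. Starts came from GENCODE 44 (hg38), promoters from RefSeq (GRCh38). Motifs were searched on both strands around the middle summit of the 3 libraries.

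Named intervals were the 15 highest promoters and distal members, 10 widest, 10 most variable, 12 densest windows, 10 genes nearest to most distal members and all genes of 18 lists. Members and lists were chosen with earlier results of these data known. No significance test was made, since the rule used the heights. The input libraries were not analysed, and some members of the lists and rankings are not reported here. Alternatives covered the fold, the number of lists, significance, list length, each library left out, distances, starts, windows and ranking.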

Additional observations from a re-analysis of the deposited data

How the results depend on the processing

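The files give no read counts, so a missing peak cannot be told from a weak one. No paired analysis was possible because no result comes from a test. With a fold of at least 3 there were 53155 members, of which 23.6% reached a protein-coding start and 64.8% were distal, with a median width of 2253 bases and the AP-1 motif in 13.4% of distal members. With a fold of at least 10 there were 11457, with 50.1%, 37.4%, 4115 bases and 9.82%, at most 10 distal members in a 200 kb window and 6394 protein-coding genes with a member. With a peak in all 3 lists and the fold in at least 1, the values were 27.5%, 60.8%, 2532 bases and 12.8%. With at least 2 of the 3 lists they were 31.0%, 57.1%, 2757.5 bases and 12.3%. Distal intervals thus outnumbered promoters except at a fold of 10. The distal share was 54.8% with starts extended by 500 bases, 49.9% with 2 kb and 60.9% by the summit alone, and the promoter share 36.0% with 2 kb and 31.6% by the summit. The AP-1 share was 6.82% in 200 bases, 28.3% in 500 bases and 60.3% in 1000 bases, the last chosen after seeing the data.

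Leaving out each WT library in turn gave 32699 to 33741 members, a promoter share of 32.3% to 33.5%, a distal share of 54.7% to 56.0%, a median width of 2713 to 2753 bases and an AP-1 share of 12.1% to 12.4%. Each set then rests on fewer lists, which lets more intervals through. The highest 15 kept 11 to 12 promoters and 11 to 13 distal members. Ranked by −log10 p they shared 7 promoters and 9 distal members with the order by fold, and ranked by width 1 and 0. Of the 12 densest loci 4 were among the densest with windows of 100 kb, 4 with 500 kb and 2 by bases covered. Among the 18 gene lists, 216 of 234 alternative counts lay within 1.5 times the reported count, and 18 did not. The 216 include unchanged counts of 0 in lists without a member. A stricter setting could not change those, so they say nothing about stability. Of those 18, 5 came with a fold of at least 10, 4 with a fold of at least 3 and 3 with canonical starts alone.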
